A study of Mus musculus with 12 samples.

Results

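The 10 genes described here mark T cells and cytotoxic lymphocytes: Cd3d, Cd3e, Cd3g, Cd247, Cd4, Cd8a, Cd8b1, Lck, Gzmb and Nkg7. They were taken by gene symbol, from a list chosen with earlier results of these data known. All 10 were found among the 54532 genes listed in the 2 expression tables. Whole-kidney RNA was sequenced from 12 C57BL/6 mice, in 4 groups of 3. The labels give no age, sex or day of harvest. The study's methods describe young adult male mice without tying them to these libraries, in all 12 of which Y-linked genes were expressed and Xist was at most 0.022 FPKM. In the first table, mice with β-catenin deleted were compared with wild-type mice, and all 6 had unilateral ureteral obstruction (UUO), in which the ureter of 1 kidney is tied off. The study describes this knockout as a cross of floxed mice with mice in which the Ksp-cadherin promoter drives Cre, a promoter of tubular cells and not of lymphocytes. In the second table, mice labelled CD44 knockout were compared with wild-type mice of their own, and all 6 had unilateral ischemia-reperfusion injury (UIRI), in which the vessels of 1 kidney are clamped and released. The study's text does not describe how the CD44 knockout mice were made. No uninjured kidney is among the libraries, so every value below is a value after injury.

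A T cell recognises its target through an antigen receptor whose signal is carried into the cell by the CD3 chains, encoded by Cd3d, Cd3e and Cd3g, and by the ζ chain, encoded by Cd247. Lck is the kinase that the co-receptors CD4 and CD8 bring to this complex and that starts the signal. CD4 marks helper and regulatory T cells and is also found on some myeloid cells, while CD8, a dimer of the products of Cd8a and Cd8b1, marks cytotoxic T cells, with Cd8a also expressed by a subset of dendritic cells. Granzyme B, encoded by Gzmb, is a protease that cytotoxic T cells and natural killer (NK) cells release into their targets, and Nkg7 encodes a membrane protein of the granules that hold it. In a whole kidney these transcripts come from the few lymphocytes lying among tubular and stromal cells, and T cells are known to enter the kidney after obstruction and after ischemia. In such bulk samples, fewer cells of a type and less RNA per cell cannot be told apart.

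The genes lie in a few places of the mouse genome (GRCm38). The CD3 genes form a cluster on chromosome 9, with Cd3g at chr9:44969572-44980431 on the minus strand, Cd3d at chr9:44981786-44987339 on the plus strand and Cd3e at chr9:44998740-45009627 on the minus strand. Cd3g and Cd3d are read away from each other, from starts 1355 bases apart. Cd8b1 (chr6:71322788-71337494) and Cd8a (chr6:71373427-71379173) are neighbours on the plus strand of chromosome 6, with starts 50639 bases apart, and Cd4 is on the minus strand of the same chromosome (chr6:124864692-124888221). The others are single: Cd247 at chr1:165788681-165877277, Lck at chr4:129548344-129573641, Gzmb at chr14:56258838-56262260 and Nkg7 at chr7:43437073-43438249. Promoter sequences from RefSeq (GRCm38.p6) matched 8 of the 10 genes, all but Cd4 and Cd8b1. The 120 bases before the start are printed for 4 genes that were lower in the libraries labelled CD44 knockout, to show the divergent CD3 pair beside a kinase and a granule gene. Capitals mark, on either strand, TGTGGT (letters of the RUNX motif), CTTTGA (letters of the TCF/LEF motif, bound by the partners of β-catenin) and GGAAGT (letters of the ETS motif).
Cd3g, chr9:44980432-44980551, minus strand: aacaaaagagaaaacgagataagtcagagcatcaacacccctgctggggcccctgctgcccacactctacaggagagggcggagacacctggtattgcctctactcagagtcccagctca
Cd3d, chr9:44981666-44981785, plus strand: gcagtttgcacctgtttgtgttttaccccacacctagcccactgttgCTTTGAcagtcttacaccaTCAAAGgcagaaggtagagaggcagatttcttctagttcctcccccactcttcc
Lck, chr4:129573642-129573761, minus strand: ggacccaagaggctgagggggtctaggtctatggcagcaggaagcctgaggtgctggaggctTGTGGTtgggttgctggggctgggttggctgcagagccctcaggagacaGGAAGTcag
Gzmb, chr14:56262335-56262454, minus strand: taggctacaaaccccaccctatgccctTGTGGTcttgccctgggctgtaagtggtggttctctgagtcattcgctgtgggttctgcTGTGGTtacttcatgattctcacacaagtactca

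In these windows Cd3d held the TCF/LEF letters 2 times and Gzmb the RUNX letters 2 times, Lck held the RUNX and the ETS letters once each, and Cd3g held none of the 3. The window before a second RefSeq start of Lck, chr4:129558373-129558492, is not printed. It held the ETS letters once and lacked the RUNX letters. These letters are common: within 250 bases before the start, 14% of 32851 promoters held the RUNX letters, 13.8% the TCF/LEF letters and 19.7% the ETS letters. A match is a description of the sequence and does not show that a factor bound there.

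The libraries were of similar depth, from 15940405 to 20737443 reads assigned to genes, and the 10 genes together drew 275 to 2009 of these reads per library. The targeted genes were checked first. Ctnnb1, which encodes β-catenin, was 71.4 to 84.7 FPKM (fragments per kilobase, corrected for library depth) in β-catenin knockout mice and 86.7 to 98.5 FPKM in their wild-type mice, without overlap, but the difference did not pass the test (log2 fold change −0.28, limma adjusted p = 0.189). Cd44 was 18.97, 11.97 and 13.9 FPKM in the libraries labelled CD44 knockout and 19.9, 16.3 and 17.8 FPKM in wild-type mice after UIRI. These ranges overlapped (log2 fold change −0.27, limma adjusted p = 0.339), so the level of Cd44 did not bear out the label, and which part of the gene was deleted is not given in the sources used here. In the UUO table, Cd44 fell by 0.68 on the log2 scale in β-catenin knockout mice (limma adjusted p = 0.0181). Knockout libraries were also lower than wild-type libraries in the summed level of 14 genes of leukocytes in general, in both tables. It was 111 to 150 FPKM in β-catenin knockout mice against 264 to 364 in wild-type mice after UUO. After UIRI it was 129 to 164 in the libraries labelled CD44 knockout against 265 to 353 in wild-type mice. The part of this difference in the results below was not tested.

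**Figure D1:**
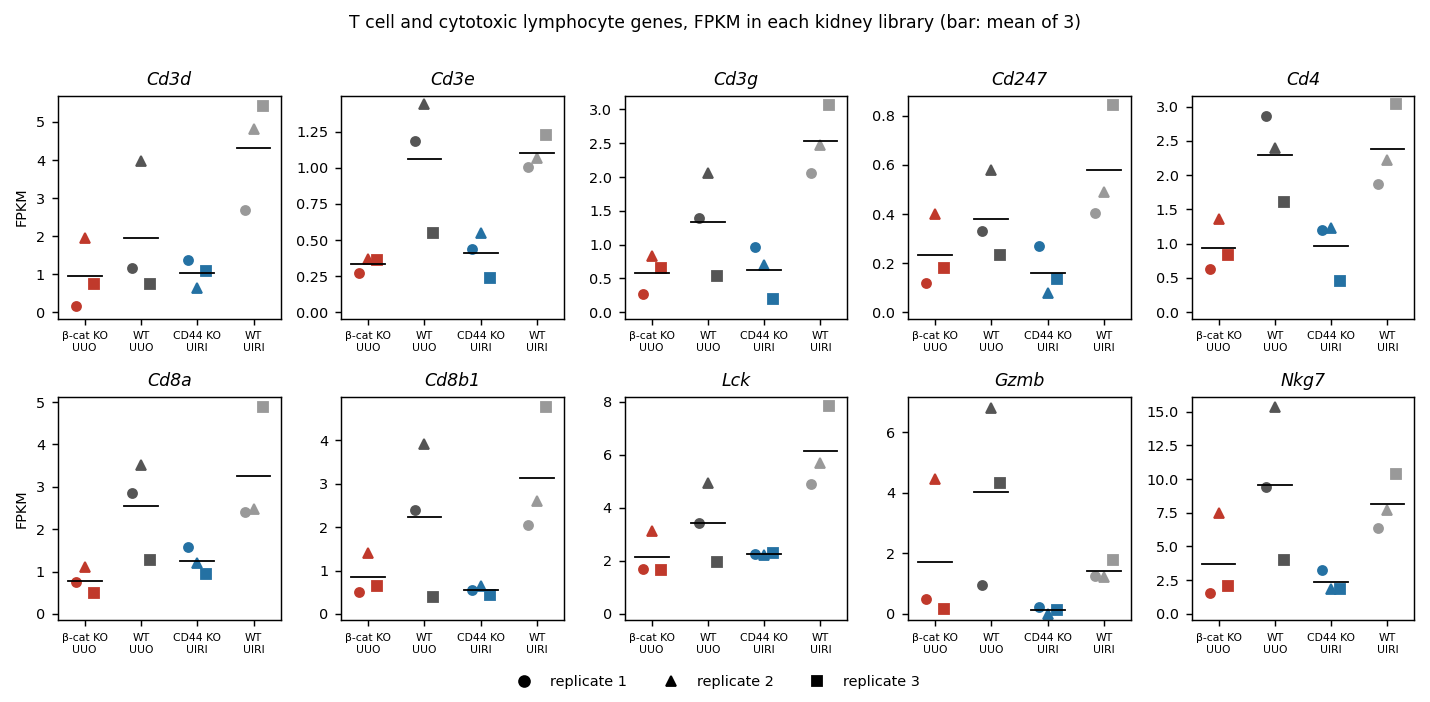
Level of each of the 10 genes in FPKM (vertical axes, a scale of its own for each gene) in the 4 groups of 3 kidney libraries, where each point is 1 mouse and the bar is the mean of 3. After UIRI the libraries labelled CD44 KO lie below all wild-type libraries for every gene, while after UUO the ranges overlap for all genes but Cd3e, Cd4 and Cd8a.

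The comparison after UIRI asked how the kidney differed between mice labelled CD44 knockout and wild-type mice. All 10 genes were lower in each of the libraries labelled CD44 knockout than in any wild-type library. Of 16113 genes tested with a mean of at least 0.5 FPKM, 9 were members, and 6 of these 9 fell: Lck, Gzmb, Nkg7, Cd8b1, Cd3d and Cd3g. Over all genes tested, 353 were called lower, which is 2.19%, and 648 higher (limma on log2(FPKM + 1), two-sided, adjusted p under 0.05). With FPKM rescaled to the same total in every library this split was 467 and 214, and 6 members were called lower. Of all genes tested, 14.5% were lower in every knockout than in every wild-type library. The median log2 fold change of the 9 members was −1.11, beside 0.00 over all genes tested. None of the members was higher.

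Among the receptor chains, Cd3d was 1.37, 0.634 and 1.09 FPKM in the libraries labelled CD44 knockout and 2.69, 4.82 and 5.43 FPKM in wild-type mice. No value of the former reached the lowest of the latter, and Cd3d fell by 1.36 on the log2 scale (SE 0.24, limma adjusted p = 0.0336). Cd3g was 0.972, 0.705 and 0.202 FPKM against 2.06, 2.48 and 3.06 FPKM. Cd3g fell by 1.14 on the log2 scale (SE 0.21, limma adjusted p = 0.0348), and 13 reads stood behind its lowest value. Cd3e was 0.439, 0.550 and 0.236 FPKM against 1.01, 1.07 and 1.23 FPKM. The groups did not overlap, but Cd3e did not pass the test (log2 fold change −0.58, limma adjusted p = 0.0551), and it reached the mean of 0.5 FPKM only through its wild-type libraries. Cd247, at 0.271, 0.0796 and 0.133 FPKM against 0.402, 0.489 and 0.844 FPKM, was below that mean and was not tested. Exons of Cd247 share 3007 bases with Pou2f1 on the opposite strand, and exons of Cd3e share 135 bases with an antisense gene, so that reads there cannot be assigned to a strand with a kit not stated to keep it.

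Lck had the narrowest spread in the libraries labelled CD44 knockout, 2.27, 2.21 and 2.30 FPKM, beside 4.88, 5.70 and 7.85 FPKM in wild-type mice. It fell by 1.11 on the log2 scale (SE 0.15, limma adjusted p = 0.0267), which is 2.26 ± 0.045 FPKM against 6.14 ± 1.54 FPKM (SD, n = 3 mice each), or 63.2% lower.

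Of the co-receptors, Cd8b1 changed most. It was 0.545, 0.654 and 0.445 FPKM against 2.05, 2.60 and 4.77 FPKM, a mean level 5.73-fold higher in wild-type mice (log2 fold change −1.37, SE 0.23, limma adjusted p = 0.0320). Its partner Cd8a was 1.588, 1.1998 and 0.9345 FPKM against 2.41, 2.48 and 4.89 FPKM, 2.63-fold higher in wild-type mice. This difference did not pass the test (log2 fold change −0.89, SE 0.24, limma adjusted p = 0.0694). Cd4 was 1.203, 1.233 and 0.453 FPKM against 1.88, 2.22 and 3.03 FPKM and did not pass either (log2 fold change −0.80, SE 0.21, limma adjusted p = 0.0703). The ratio of Cd8b1 to Cd8a, looked at after these values were seen and not tested, was 0.343 to 0.545 in the libraries labelled CD44 knockout and 0.851 to 1.05 in wild-type mice.

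Both granule genes fell. Nkg7 had the highest mean of the members in this table, though Lck was higher in 2 of the 3 libraries labelled CD44 knockout. It was 3.29, 1.86 and 1.89 FPKM against 6.38, 7.67 and 10.4 FPKM in wild-type mice (log2 fold change −1.46, SE 0.22, limma adjusted p = 0.0267). Gzmb was near the limit of detection in the libraries labelled CD44 knockout, with 6, 0 and 4 reads, and had 30, 32 and 51 reads in wild-type mice. This corresponds to 0.241, 0 and 0.141 FPKM against 1.24, 1.21 and 1.79 FPKM, and the count of 0 allows a level of up to 0.127 FPKM (3 reads, counting error only). Its log2 fold change was −1.10 (SE 0.16, limma adjusted p = 0.0267), which understates the 11.1-fold ratio of its means because of the pseudocount of 1. Gzmb also passed the filter only through its wild-type libraries.

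These calls lay close to the threshold. Without any 1 of 5 of the 6 libraries, none of the members was called by limma, with adjusted p-values from 0.0558 to 0.208, and at most 5 of all genes were called lower. Without the second library labelled CD44 knockout, 7 members were called lower, where 4.73% of all genes were. In each of these 6 refits all 9 members were lower at an unadjusted p under 0.05 (the highest was 0.0287), as were 7.96% to 13.2% of all genes. With all 6 libraries, 11.2% of all genes were lower at that unadjusted p. Limma with no filter on low values called 0 members, where 20 genes were called lower and 43 higher over all genes, and a fit blocked on replicate called 0 members and 0 genes. Limma's voom on the reads recovered from the FPKM called all 9 members lower, where 4.41% of all genes were called lower. With every gene of at least 10 reads in place of the FPKM filter, it called all 10, Cd247 included (log2 fold change −1.92, adjusted p = 0.0467), where 2.97% of all genes were called lower. Leaving out a library in the voom fit gave 0 to 9 members called lower, where 0.0187% to 7.39% of all genes were, with 0 members without the third library labelled CD44 knockout and without the third wild-type library.

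**Figure D2:**
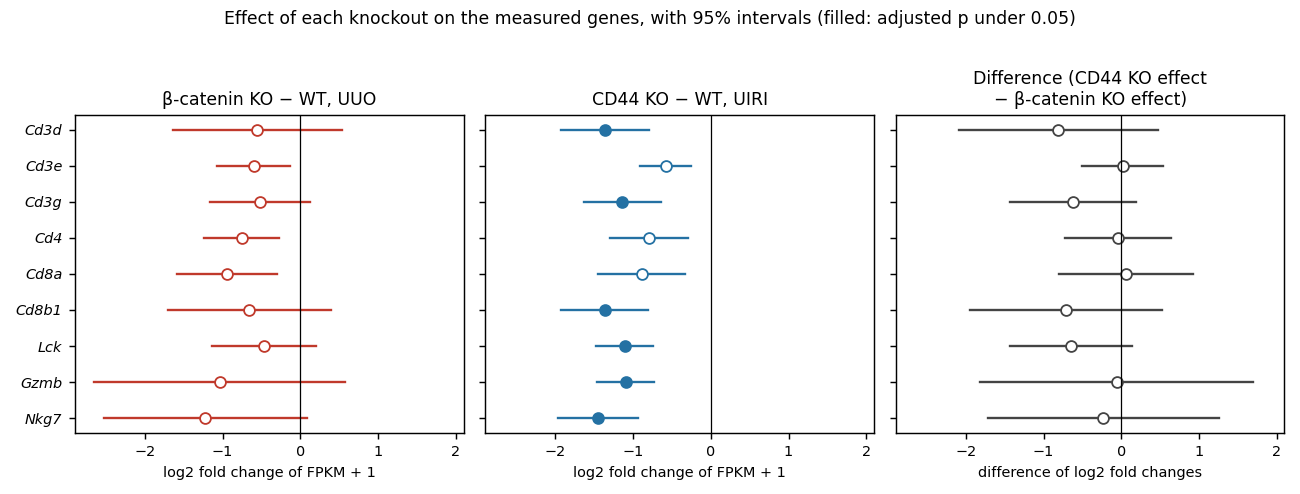
Log2 fold change of FPKM + 1 (horizontal axes) for the 9 tested genes after deletion of β-catenin with UUO, in mice labelled CD44 KO with UIRI, and the difference between both effects, where bars are 95% intervals and filled points passed an adjusted p of 0.05. All intervals of the middle panel lie below 0, with 6 filled points, and all intervals of the right panel include 0.

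After UUO, the comparison asked how deletion of β-catenin in tubular cells changed the obstructed kidney. These genes had lower means in knockout mice, by log2 fold changes from −0.47 for Lck to −1.23 for Nkg7, but none of the 9 tested members passed the limma test. Over all 16166 genes tested, 705 were called lower, which is 4.36%, and 1004 higher. With FPKM rescaled to the same total in every library this split was 1166 and 564, and Cd4 and Cd8a were called lower. At an unadjusted p under 0.05, 3 members were lower (Cd4, Cd8a and Cd3e), as were 12.9% of all genes tested, and the same 3 were lower in every knockout library than in every wild-type library, which 15.9% of all genes tested were. The median over the 9 members was −0.66, beside 0.01 over all genes tested.

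Cd4, Cd8a and Cd3e did not overlap between the groups, though none of them passed the test. Cd4 was 0.634, 1.36 and 0.837 FPKM with β-catenin deleted against 2.86, 2.40 and 1.61 FPKM in wild-type mice, without overlap (log2 fold change −0.76, 95% interval −1.24 to −0.28, limma adjusted p = 0.0564). Cd8a was 0.751, 1.11 and 0.495 FPKM against 2.86, 3.52 and 1.26 FPKM (log2 fold change −0.95, 95% interval −1.59 to −0.31, limma adjusted p = 0.0680). Cd8b1 was 0.509, 1.40 and 0.645 FPKM against 2.40, 3.92 and 0.397 FPKM, so that the lowest of all 6 values was that of a wild-type mouse. Its interval ran from −1.70 to 0.39 (limma adjusted p = 0.360).

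Of the receptor chains, Cd3e was 0.271, 0.370 and 0.359 FPKM with β-catenin deleted against 1.19, 1.44 and 0.548 FPKM in wild-type mice (log2 fold change −0.60, limma adjusted p = 0.0953), and again it passed the filter only through its wild-type libraries. Cd3d was 0.160, 1.94 and 0.744 FPKM against 1.16, 3.97 and 0.746 FPKM, and Cd3g was 0.267, 0.827 and 0.654 FPKM against 1.39, 2.06 and 0.540 FPKM. Both overlapped between the groups, and Cd3d varied 12.1-fold among the knockout mice alone. Cd247, not tested, was 0.120, 0.401 and 0.180 FPKM against 0.329, 0.581 and 0.232 FPKM. Lck was 1.69, 3.13 and 1.65 FPKM against 3.43, 4.94 and 1.95 FPKM (log2 fold change −0.47, limma adjusted p = 0.317).

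On the log2(FPKM + 1) scale the granule genes had the most negative changes of the 9. As a ratio of mean FPKM, Cd8a (3.25-fold) and Cd3e (3.18-fold) differed more than Nkg7 (2.59-fold) and Gzmb (2.37-fold). Nkg7 was 1.53, 7.50 and 2.09 FPKM with β-catenin deleted against 9.41, 15.4 and 3.99 FPKM (log2 fold change −1.23, 95% interval −2.53 to 0.08, limma adjusted p = 0.190). Gzmb was 0.486, 4.46 and 0.157 FPKM against 0.969, 6.80 and 4.30 FPKM (log2 fold change −1.04, 95% interval −2.65 to 0.58). In both genes the second knockout mouse stood above at least 1 wild-type mouse.

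A pair of UUO libraries stood apart. The second β-catenin knockout library held the highest value of its group for all 10 genes, with a summed level of 22.5 FPKM beside 6.41 and 7.82. The second wild-type library likewise held the highest wild-type value of every member but Cd4. The third wild-type library held 15.6 FPKM beside 26.0 and 45.0, with the lowest wild-type value of 9 of the 10 genes. The exception was Gzmb, and the ratio of Gzmb to Nkg7 in that library was 1.08, beside 0.103 and 0.443 in the other wild-type mice. Ptprc, which encodes CD45 on all leukocytes, was 10.1 FPKM there beside 7.83 and 9.76. The neutrophil genes also stood apart in it. S100a8 was 183 FPKM beside 9.58 and 10.1, S100a9 was 308 FPKM beside 13.8 and 14.1, and Csf3r, the receptor for the granulocyte growth factor, was 41.7 FPKM beside 8.70 and 6.72. Their part in the values of the lymphocyte genes was not tested. Gzma, another granzyme, was 7.14 FPKM there beside 3.94 and 7.11. Without this wild-type library, Cd3e, Cd4 and Cd8a were called lower by limma, where 3.28% of all genes were called lower. Without the second knockout library limma called none, and 5 members were lower at an unadjusted p under 0.05, as were 9.7% of all genes. Voom called 2 of the 9 members lower, Cd4 and Cd8a (adjusted p = 0.0327 and 0.0474), where 6.33% of all genes were called lower. The same 2 of 10 were called with every gene of at least 10 reads, where 4.45% of all genes were. Voom without the third wild-type library called 6 members lower, where 5.86% of all genes were called lower.

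**Figure D3:**
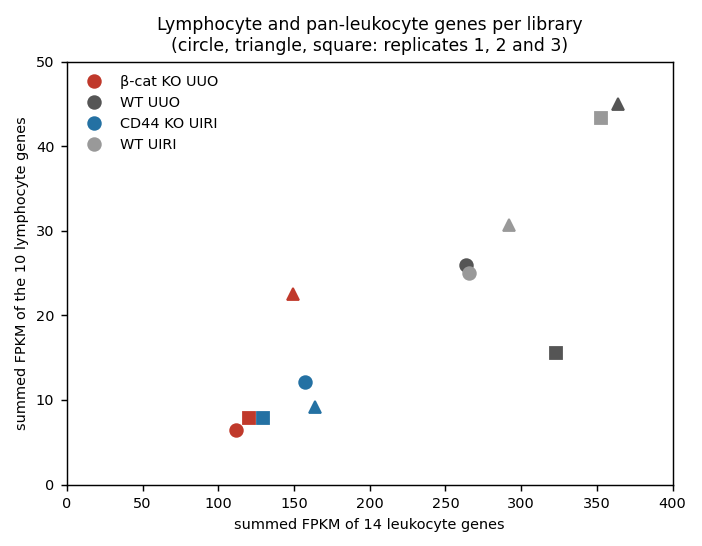
Summed FPKM of the 10 lymphocyte genes (vertical axis) against the summed FPKM of 14 genes of leukocytes in general (horizontal axis) in each of the 12 libraries, where colours are groups and shapes are replicates. The third wild-type library after UUO lies at 15.6 FPKM for the lymphocyte genes with 323 FPKM for the leukocyte genes, and the second β-catenin KO library at 22.5 FPKM with 150 FPKM.

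The effects of both knockouts were compared directly in 1 fit of all 12 libraries, where the effect of each was taken against its own wild-type mice. Genotype, injury and table cannot be told apart in this difference. None of the 9 members differed (limma and voom, none at an unadjusted p under 0.05 by either), and of 16193 genes tested 0.00618% differed. The intervals were wide. For Lck the difference, the effect of the CD44 knockout label minus that of β-catenin deletion, was −0.64 (95% interval −1.43 to 0.14), and for Cd3d it was −0.81 (95% interval −2.09 to 0.47). For Cd3e it was 0.02 (95% interval −0.50 to 0.54), for Cd4 −0.04 (95% interval −0.72 to 0.64) and for Cd8a 0.06 (95% interval −0.80 to 0.92). For Gzmb the interval ran from −1.81 to 1.70. That 6 members passed the test after UIRI and none after UUO is therefore not shown to be a difference between the knockouts.

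The order of the levels over the 4 groups was much the same for most genes. Because the tables were scaled separately, levels across them are set side by side without a test. Wild-type mice after UIRI had the highest mean for 8 of the 10 genes, and wild-type mice after UUO had the highest mean of Gzmb and Nkg7. For all genes but Gzmb, both knockout groups had lower means than both wild-type groups. Gzmb averaged 1.70 FPKM in β-catenin knockout mice after UUO and 1.42 FPKM in wild-type mice after UIRI, and these ranges overlapped. Between the wild-type groups, the ranges overlapped for all genes but Cd3g, whose ranges touched at 2.06 FPKM. Between the knockout groups, the ranges overlapped for all 10 genes. Within every group Nkg7 had the highest mean per length. Lck was second except in wild-type mice after UUO, where Gzmb was second. Cd247 was lowest or, in the libraries labelled CD44 knockout, second lowest after Gzmb.

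The members also followed each other across mice. Over the 12 libraries, the correlation of each gene with the mean of the other 9 (Pearson's r on log2(FPKM + 1), a description over libraries that share the group differences) was lowest for Gzmb, at 0.72, and between 0.89 and 0.97 for the others. Of 12022 genes compared, the one most like the mean of the members was Gimap3 (r = 0.98), which encodes a GTPase of lymphocytes, followed by Cd5, an inhibitory receptor of T cells (r = 0.97), and Cxcr6, a chemokine receptor of resident T cells (r = 0.97). Lrmp, Itgb7, Zap70, Tbc1d10c, Il16, H2-Eb1 and H2-Aa followed, with r from 0.95 to 0.97. Gimap3 averaged 8.37 FPKM in wild-type mice and 4.03 FPKM with β-catenin deleted, all with UUO. After UIRI it averaged 11.5 FPKM in wild-type mice and 4.01 FPKM in mice labelled CD44 knockout.

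Other genes of the same cells were followed through lists written with textbook knowledge and with earlier results of these data known. Beside the counts that follow, 2.19% of all genes tested were called lower after UIRI and 4.36% after UUO. The constant segments of the T cell receptor itself, Trac, Trbc1 and Trbc2, were measured at higher levels than most members. All 3 of 3 fell in mice labelled CD44 knockout after UIRI. Trbc2 was 5.93, 3.42 and 3.22 FPKM against 11.2, 21.3 and 21.5 FPKM in wild-type mice (log2 fold change −1.86, limma adjusted p = 0.0288), Trac had a log2 fold change of −1.52 and Trbc1 of −1.44. None of the 3 passed the test after UUO (limma and voom, none at an unadjusted p under 0.05 by limma), where Trac was 2.80, 6.39 and 3.49 FPKM with β-catenin deleted against 6.72, 10.8 and 2.64 FPKM. The third wild-type mouse was again the lowest. Trdc, which marks γδ T cells, was at most 0.426 FPKM in any library.

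Of the T cell surface and signalling genes, 7 of 17 tested fell after UIRI and none rose. They included Tigit (log2 fold change −1.18), an inhibitory receptor, Cd5 (−1.15), the interleukin receptor gene Il7r (−0.94) and Pdcd1 (−0.99), which encodes the inhibitory receptor PD-1. Tigit and Pdcd1, at means of 0.345 and 0.411 FPKM in the libraries labelled CD44 knockout, passed the filter only through their wild-type libraries. After UUO 4 of 14 fell: Il2rg (log2 fold change −1.51), Il2rb (−0.80), Lcp2 (−1.32) and Fyb (−1.28). Il2rg, Lcp2 and Fyb are expressed by myeloid cells as well as T cells. Lcp2 was also among the genes that fell after UIRI (log2 fold change −0.77, limma adjusted p = 0.0486). Of the T cell transcription factors, 1 of 7 fell after UUO, Ikzf1 (log2 fold change −1.08), a factor of all leukocytes, and none of 7 passed the test after UIRI (limma and voom, 4 lower at an unadjusted p under 0.05 by limma). Foxp3, the factor of regulatory T cells, was at most 0.327 FPKM.

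Of the cytotoxic and NK cell genes, 6 of 12 tested fell after UIRI. All 12 had a negative log2 fold change, and 10 were lower at an unadjusted p under 0.05 by limma. So were 11.2% of all genes. Gzmk, a granzyme, was 0.374, 0.044 and 0.146 FPKM against 1.29, 1.68 and 2.51 FPKM (log2 fold change −1.24, limma adjusted p = 0.0288), and it passed the filter only through its wild-type libraries. Srgn, Tyrobp, Fcer1g and Hcst fell as well, and the first 3 of these are also genes of myeloid cells. After UUO 3 of 16 fell, Tyrobp, Fcer1g and Srgn, and all 3 are also myeloid. All 16 had a negative log2 fold change, and 11 were lower at an unadjusted p under 0.05 by limma. So were 12.9% of all genes. Ncr1, which marks NK cells, was 1 of the 11 (log2 fold change −0.86, limma adjusted p = 0.061). Gzmk had the smallest change of the 16 (log2 fold change −0.05). Ncr1 was 0.146 to 0.775 FPKM in β-catenin knockout and 0.917 to 1.91 FPKM in wild-type mice after UUO, and at most 0.264 FPKM after UIRI.

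Chemokines that draw lymphocytes, and their receptors, were also lower in part. After UIRI 4 of 11 fell, Cxcr6 (log2 fold change −1.29), Ccl22 (−1.30), Cxcl9 (−1.74) and Cxcr3 (−0.79), the receptor for Cxcl9. After UUO 5 of 12 fell, among them Cxcl9, Ccl22 and Ccr2, which is also counted among the macrophage and monocyte genes below. Of these 5, 2 passed the filter there only through their wild-type libraries, Ccl22 among them. Cxcl9 was 1.195, 2.272 and 1.29 FPKM with β-catenin deleted against 13.7, 18.7 and 4.84 FPKM (log2 fold change −2.23, limma adjusted p = 0.0236), and the third wild-type mouse was the lowest of its group here too.

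**Figure D4:**
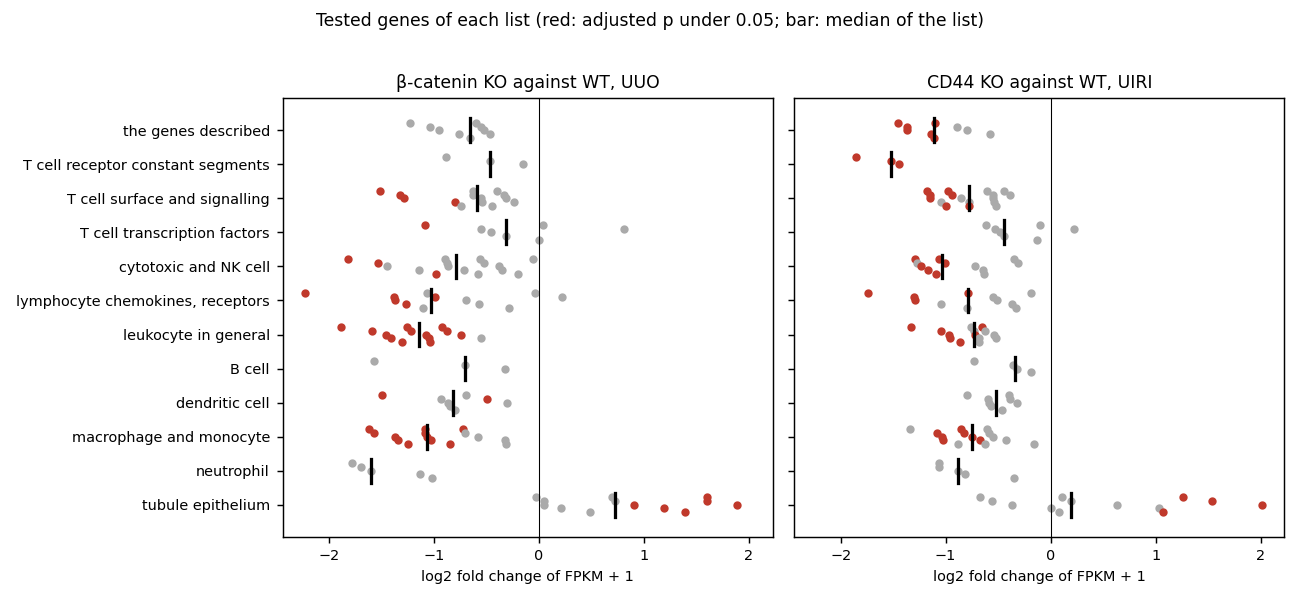
Log2 fold change of FPKM + 1 (horizontal axes) of the tested genes of each list in both comparisons, where red points passed an adjusted p of 0.05 and the bar is the median of the list. Points of the T cell, cytotoxic, leukocyte and macrophage lists lie mostly below 0 in both panels, and red points above 0 are seen among tubule genes.

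Markers of leukocytes in general and of other cells moved beside the lymphocyte genes. Of 14 genes of leukocytes in general, 13 fell after UUO and 7 after UIRI. Of 15 macrophage and monocyte genes, 11 fell after UUO and 7 after UIRI, and their summed level was 683 to 845 FPKM in β-catenin knockout against 1251 to 1589 FPKM in wild-type mice, and 877 to 1493 against 2204 to 2276 FPKM after UIRI. Of 8 dendritic cell genes, 2 fell after UUO and none passed the test after UIRI (limma, 7 lower at an unadjusted p under 0.05), where voom called 1. None of 5 neutrophil genes passed in either comparison by limma or voom (1 and 4 at an unadjusted p under 0.05 by limma), nor did B cell genes, of which 3 and 4 were tested (1 and 1). The defining B cell gene Ms4a1 was at most 0.125 FPKM. Of the tubule genes, 6 of 13 rose after UUO and 4 of 13 after UIRI, where 6.21% and 4.02% of all genes were called higher, with Slc34a1 and Slc22a6, transporters of the proximal tubule, among them in both. The 4 that rose after UIRI, Slc22a6, Cubn, Slc34a1 and Lrp2, are genes of the proximal tubule, while Umod and Slc12a1 of the thick ascending limb (log2 fold changes −0.55 and −0.67) and Epcam (−0.37) did not pass the test. The part of these other cells in the result on the lymphocyte genes was not tested.

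The lymphocyte genes were also set against the genes of leukocytes in general, and of macrophages and monocytes, in each library. The first of these lists holds genes that lymphocytes express as well, such as Ptprc. Their summed level was 5.58% to 7.73% of that of the 14 leukocyte genes in the libraries labelled CD44 knockout and 9.42% to 12.3% in wild-type mice after UIRI, without overlap. After UUO the share was 5.75%, 15.0% and 6.50% with β-catenin deleted against 9.86%, 12.4% and 4.82% in wild-type mice, with overlap. The second knockout library and the third wild-type library were at the extremes. As a share of the summed macrophage and monocyte genes, the members were 0.611% to 1.34% in the libraries labelled CD44 knockout and 1.13% to 1.90% in wild-type mice after UIRI, with overlap. After UUO the latter share was 0.938% to 2.66% with β-catenin deleted and 0.987% to 2.83% in wild-type mice. These shares were computed after the levels had been seen and are given without a test.

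**Figure D5:**
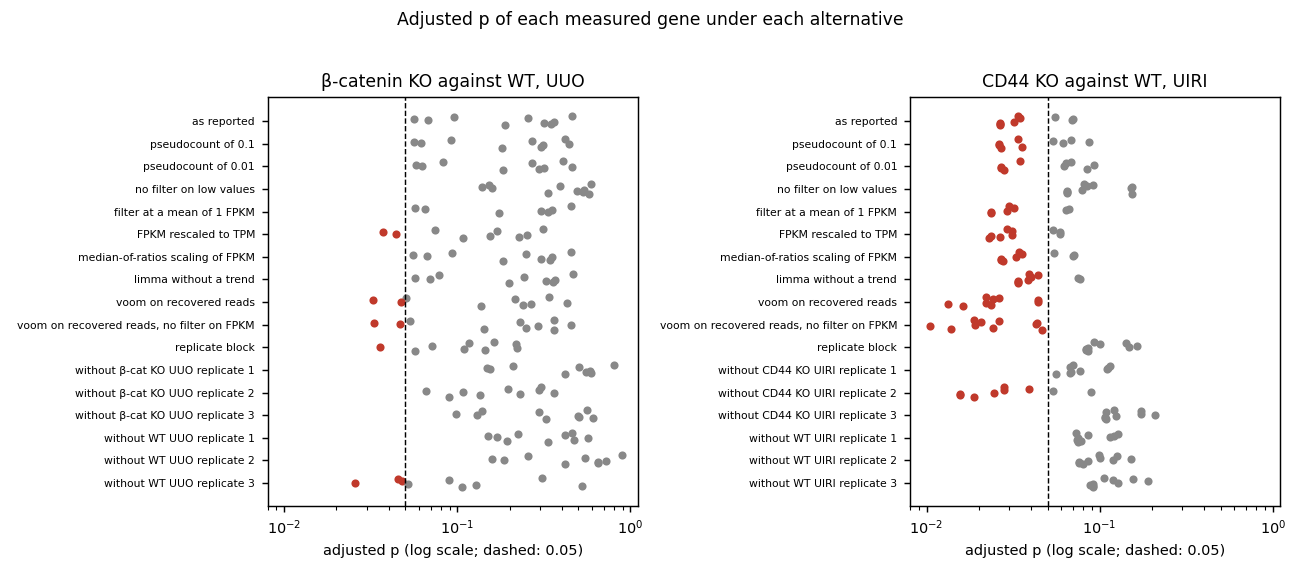
Adjusted p (horizontal axis, log scale) of each measured gene in both comparisons under each alternative of scaling, filter and test and with each library left out, where points left of the dashed line at 0.05 are red. After UIRI the points lie between 0.01 and 0.21 in all rows shown, and after UUO few points cross the line.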

How the data were processed

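RNA was extracted with Trizol, and libraries were made with the NEBNext Ultra RNA kit. The submitters' notes name HISAT2 2.0.5 for alignment, featureCounts 1.5.0-p3 for reads per gene and DESeq2 1.20.0. The authors deposited FPKM in 2 tables. Wild-type columns have the same names in both and were assigned by the knockout in the same table. FPKM times gene length came in whole reads for 100% of values (within 0.01 read), giving 15940405 to 20737443 reads per library. Since the unit is FPKM, DESeq2 was not run. limma 3.58.1 (R 4.3.3, trend) was run on log2(FPKM + 1) for genes averaging 0.5 FPKM or more. Tests were two-sided and adjusted by Benjamini-Hochberg, with 0.05 as the threshold. An exact permutation test of 3 mice against 3 cannot go below p = 0.1. The procedure was also run on simulated reads. These had the same setting of spread between mice for every gene, not the spread of the members. That run therefore does not test the procedure on these genes. Sequences and figures used Python 3.11.15 and Matplotlib 3.10.9.

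The members and 12 other lists (152 of 155 symbols found) were chosen with earlier results of these data known. Named are the members, the targeted genes, the 10 most alike genes with at least 1 FPKM and, of each list, at most 4 with the smallest p in a comparison, plus defining markers. Not every gene so named is reported here. Gzma, Trdc and the ratios were picked after values were seen. The analysis was repeated with a pseudocount of 0.1 or 0.01, dropping the filter or raising it to 1 FPKM, TPM, median-of-ratios scaling, no trend, voom on the reads, a replicate block and leaving out each library. Voom without the FPKM filter (genes of at least 10 reads) and voom with a library left out were added after seeing the data.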

Additional observations from a re-analysis of the deposited data

How the results depend on the processing

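After UIRI, all 9 tested members kept a negative log2 fold change under every alternative run. The number of members called lower, 6 as reported, was 0 with no filter on low values (20 genes lower and 43 higher over all genes), 0 with the replicate block (0 and 0) and 10 by voom without the FPKM filter (645 lower and 987 higher). Over all genes, voom called 711 lower, and rescaling to TPM called 214 higher. Leaving out a library, by limma or voom, gave 0 to 9 members lower, and 1 to 1192 genes lower and 0 to 1731 higher. After UUO, none of the members was called lower as reported. TPM called 2 members lower (1166 genes lower and 564 higher over all genes), and voom 2 (1024 and 1232). Voom without the FPKM filter called 2 (969 and 1238). The replicate block called 1, Cd8a, where 675 of all genes were lower, which is 4.18%, and 992 higher. No filter gave 193 genes lower and 280 higher. Leaving out a library gave 0 to 6 members lower, and 98 to 1090 genes lower and 130 to 1701 higher. For the difference between the knockouts no alternative called a member, a pseudocount of 0.01 called 2 genes lower, no filter 2 lower and 1 higher, and leaving out a library 1 to 5 lower and 0 to 2 higher. TPM turned the difference positive for Cd4 (0.0178) and Gzmb (0.0396). Without the second wild-type library after UUO, 3 members had a negative difference at an unadjusted p under 0.05 by limma. So did 6.18% of all genes. By voom without that library 1 member did, beside 6.24% of all genes. With the replicate block 1 member did by limma, beside 7.16% of all genes. With a library left out, the difference ran from −0.12 to 0.21 for Cd3e, −0.16 to 0.17 for Cd4, −0.15 to 0.35 for Cd8a, −0.49 to 0.63 for Gzmb and −0.62 to 0.31 for Nkg7. The cause of these changes was not tested. TPM moved the median of all genes to −0.16 after UUO and −0.11 after UIRI, where the members' medians were −0.78 and −1.21.

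After UUO, deviations of mice with the same number correlated with r of 0.08, 0.20 and 0.04, and with different numbers −0.16 to 0.08. After UIRI these were −0.14, −0.03 and −0.03, beside −0.11 to 0.15. The labels do not give the number as a pairing, so the main fits leave it out. Whether it is one after UUO cannot be settled from these values. With the replicate block, 6 members were lower after UUO at an unadjusted p under 0.05 by limma, as were 13.4% of all genes. Limits are the few reads of most members (0 to 455 a library), 3 mice a group and the level of Cd44 in the libraries labelled CD44 knockout.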
